A study of Mus musculus with 8 samples.

Results

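The E2F transcription factors and the pocket proteins that bind them were followed through 10 genes: the activator E2Fs E2f1, E2f2 and E2f3, the repressor E2Fs E2f4, E2f6, E2f7 and E2f8, and the pocket proteins Rb1, Rbl1 and Rbl2. The genes were chosen by symbol, as probe sets to which the platform annotation gives 1 of these names and no other, and 11 probe sets fitted, 1 for each gene and a second for E2f3. They stand among 19938 genes measured. No filter on low values was applied, so all 10 genes entered every test. E2f5, the remaining classical E2F, was not among the genes chosen and is given with the partners below.

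RNA came from primary embryonic fibroblasts of the mouse, cells grown out of embryos and kept in culture, of 2 lines: line A (MEF10) and line B (MEF16). In each line 2 samples had received no tamoxifen and expressed PKM2, an isoform of pyruvate kinase found in embryonic and proliferating cells, and 2 had received tamoxifen and expressed PKM1, the isoform of differentiated tissues, so 4 groups of 2 gave 8 Affymetrix arrays. All tamoxifen samples expressed PKM1 and all others PKM2, so effects of the drug and of the isoform cannot be told apart. The labels give no dose, duration or age, name no further allele, and name no culture or embryo for single samples. The p-values cover the variation among these 8 arrays, part of which may be technical.

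Progress from G1 into S phase depends on E2F factors, which bind DNA with a DP partner at genes for replication and nucleotide synthesis. Pocket proteins bind E2Fs and hold these genes down until cyclin-dependent kinases phosphorylate them: the product of Rb1 mainly binds activator E2Fs, while those of Rbl1 (p107) and Rbl2 (p130) bind E2F4 and E2F5 and join the DREAM complex of resting cells. E2F6, E2F7 and E2F8 repress without pocket proteins, and E2f1, E2f7, E2f8 and Rbl1 are themselves known E2F targets, with transcripts that are high in cycling fibroblasts.

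The promoters of E2f7, E2f8 and Rbl1 are shown as those of members known as E2F targets whose values were lower with tamoxifen. That of Rbl2 is shown because it encodes the close relative of p107 and held no E2F letters. E2f1, also a known E2F target with lower group means (-0.04 over both lines), is not shown, and its window held no E2F letters either. E2f2 (-0.205 over both lines) held none, and 1 window of E2f3 (0.115) held 1 match, and neither gene is shown. Letters and direction thus did not go together for all members. The windows shown are the 250 bases before the start site in RefSeq (GRCm38.p6), 5′ to 3′ on the strand of the gene. Capitals mark forms of the E2F motif on either strand, which are the letters TTCCCGC and those with other central bases, namely TTGGCGC, then also TTGCCGC, and last TTCGCGC. E2f7 lies at chr10:110745189-110745438 on the plus strand, E2f8 at chr7:48881597-48881846 on the minus strand, Rbl1 at chr2:157204535-157204784 on the minus strand and Rbl2 at chr8:91069807-91070056 on the plus strand.
E2f7: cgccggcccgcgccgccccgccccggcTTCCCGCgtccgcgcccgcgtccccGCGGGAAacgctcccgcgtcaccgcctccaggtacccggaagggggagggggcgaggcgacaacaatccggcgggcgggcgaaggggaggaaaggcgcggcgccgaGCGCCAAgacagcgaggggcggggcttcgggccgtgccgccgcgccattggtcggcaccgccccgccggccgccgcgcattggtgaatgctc
E2f8: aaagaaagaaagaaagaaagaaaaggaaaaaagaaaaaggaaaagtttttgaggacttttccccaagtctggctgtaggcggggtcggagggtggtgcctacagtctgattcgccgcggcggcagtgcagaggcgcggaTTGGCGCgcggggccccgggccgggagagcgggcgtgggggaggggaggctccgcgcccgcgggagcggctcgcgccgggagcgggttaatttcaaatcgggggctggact
Rbl1: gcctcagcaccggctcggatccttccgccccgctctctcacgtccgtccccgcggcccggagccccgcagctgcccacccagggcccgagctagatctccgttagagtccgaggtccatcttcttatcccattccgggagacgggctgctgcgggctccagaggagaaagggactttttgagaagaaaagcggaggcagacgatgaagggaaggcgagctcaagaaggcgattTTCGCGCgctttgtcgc
Rbl2: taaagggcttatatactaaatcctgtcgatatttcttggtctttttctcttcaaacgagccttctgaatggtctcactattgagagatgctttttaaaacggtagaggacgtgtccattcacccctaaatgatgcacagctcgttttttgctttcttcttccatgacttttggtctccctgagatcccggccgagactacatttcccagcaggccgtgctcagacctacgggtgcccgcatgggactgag

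The table of promoters held 10 windows for 8 of the members (E2f4 and Rb1 had none), and 4 windows held E2F letters. E2f7 had 3 matches, at 223, 198 and 92 bases before the start, E2f8 had 1 at 111 bases, Rbl1 had 1 at 17 bases, and 1 of the windows of E2f3 had 1 at 11 bases. The start sites given for E2f1 and E2f8 lie 466 and 477 bases inside the annotated gene, so these windows do not lie before the outermost start, and 1 window each of E2f2 and E2f3 belongs to a start further inside. Of 32851 promoter windows in all, 7.89% held such letters, and 1.86% held the 8-base form with a further T in front. Among known E2F targets of G1 and S phase 44.4% of 45 windows held the 7-base letters. The CHR letters TTTGAA, known from promoters of mitotic genes and not overlapping the E2F forms, were in 42.9% of 28 windows of genes listed for them and in 16% of all windows. Among member windows 4 held them, 1 each of E2f2, E2f3, E2f8 and Rbl2. A match of letters is a description and not a site of binding.

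Arrays of line B stood further apart than those of line A: the samples of a group correlated at 0.9956 and 0.9974 in line A and at 0.9907 and 0.9894 in line B, across 19938 genes, which are not independent replicates. Along the leading axis of variation within groups, which held 61.8% of it, replicate 2 without tamoxifen and replicate 1 with tamoxifen of line B lay on 1 side, and the other arrays of line B lay opposite. The 2 probe sets of Pkm ranged from 10.74 to 11.41 and from 10.15 to 11.20 and do not show which isoform was made. Fibroblast markers averaged between 10.31 and 10.64 on each array. Markers of epithelium and mammary gland (12 genes), blood cells (11), endothelium (8) and neural cells (7) averaged between 6.41 and 6.92, and in each of these lists 1 gene stayed above 7.34, the median gene mean, on every array. The label text also names mammary tumor, while the markers of epithelium and mammary gland averaged between 6.65 and 6.79.

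With tamoxifen, all 10 members had the same sign of difference in both lines, by the probe set of the highest mean. Group means of E2f1, E2f2, E2f4, E2f7, E2f8 and Rbl1 were lower and those of E2f3, E2f6, Rb1 and Rbl2 higher. The share of all genes with 1 sign in both lines is not given here. The second probe set of E2f3 had opposite signs (-0.13 in line A, 0.19 in line B). Signs of E2f1 and E2f3 in line A, and of E2f1, E2f3, E2f4 and Rbl2 in line B, changed under some alternative analyses. The differences over both lines were furthest from 0 for Rb1, E2f7, E2f8 and Rbl1, and 10 of 44 measured genes that E2Fs are known to drive fell. The members' own differences over both lines reached 1.32-fold, and 0 of 10 passed an adjusted p of 0.05 in limma, where 1.32% of all genes passed, 0.808% higher and 0.512% lower. At an unadjusted p under 0.05 there were 4 of 10 members against 9.85% of all genes: 3 of them lower (4.32% of all genes) and 1 higher (5.53%). The members were chosen with earlier results of these data known. Values below are log2 expression values, so a difference of 1 is a doubling, and each is given with its standard error (SE) from limma. Fewer cycling cells and less RNA per cycling cell cannot be told apart in such bulk samples.

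**Figure D1:**
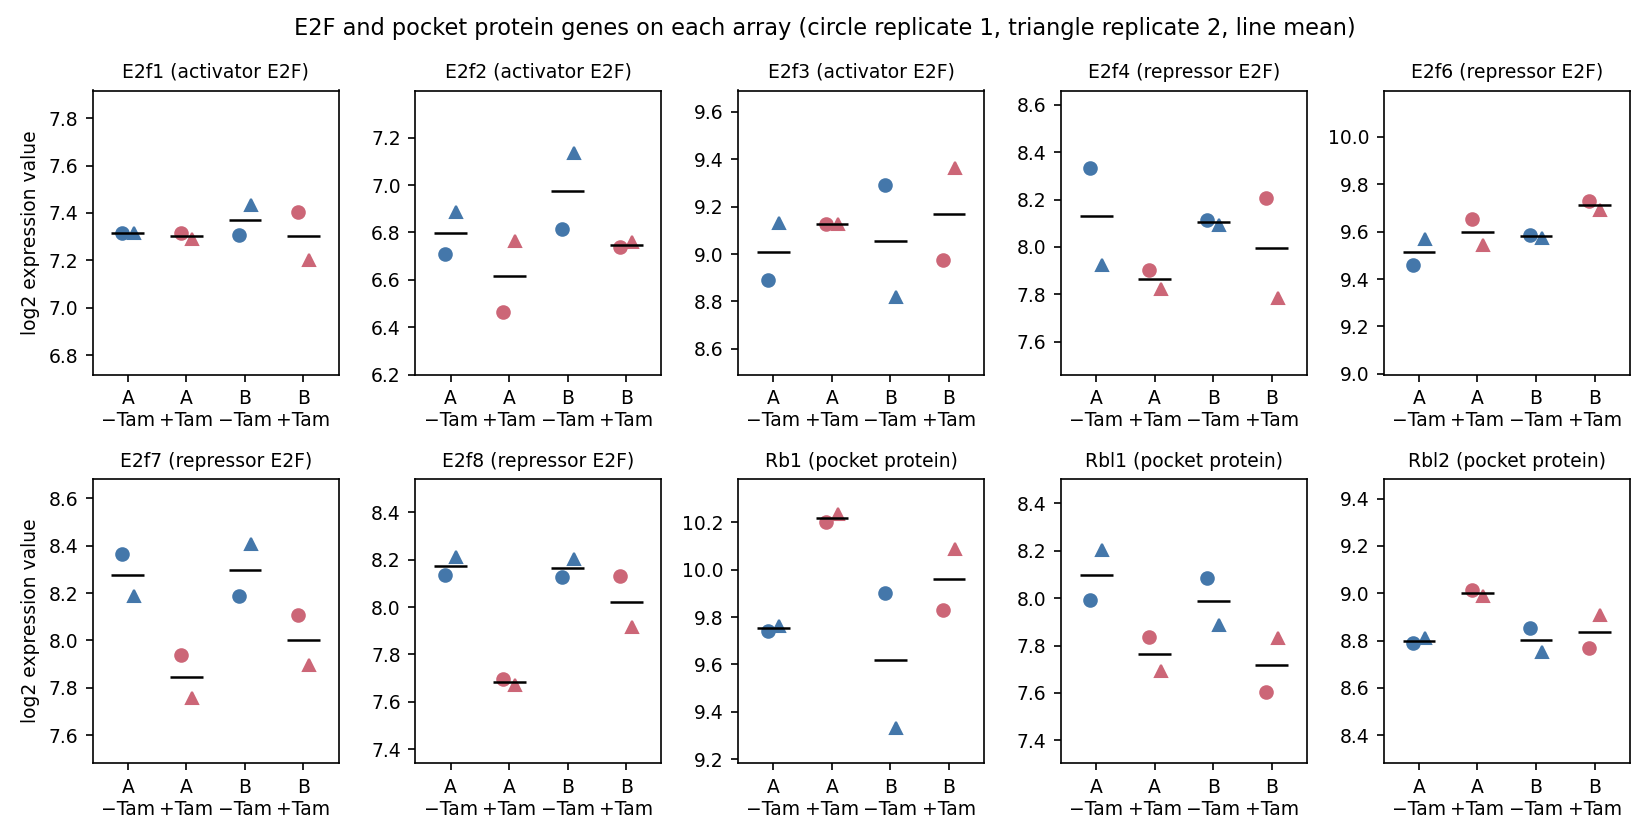
Log2 expression value (y axis, each panel spanning 1.2 units) of the 10 members on the 8 arrays, by line and tamoxifen (x axis); points are arrays and bars the mean of 2. E2f7 and Rbl1 sit lower on all 4 arrays with tamoxifen than on the 4 without, and the line B arrays are far apart for E2f3 and Rb1.

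With the probe set of the highest mean standing for each gene, as in all counts of members here, none of the 3 activator E2Fs passed in the comparisons made with limma. E2f1, the founding member of the family, was at 7.32 and 7.31 in line A without tamoxifen and at 7.31 and 7.29 with it. In line B it was at 7.31 and 7.43 without and at 7.41 and 7.20 with tamoxifen. The arrays of line B with tamoxifen were the furthest apart and enclosed all values of line A, and the difference over both lines was -0.04 (SE 0.07, 95% interval -0.19 to 0.12, adjusted p = 0.91).

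E2f2, which also drives entry into S phase, was at 6.71 and 6.89 without and 6.46 and 6.76 with tamoxifen in line A. In line B it was at 6.81 and 7.13 without and at 6.74 and 6.76 with tamoxifen. The groups overlapped in line A and not in line B, and the difference over both lines was -0.20 (SE 0.09, 95% interval -0.41 to 0.00, adjusted p = 0.52). No detection calls were used, and E2f1 and E2f2 lay near or within the range of averages of the markers of other tissues. Whether they were above background was not tested.

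E2f3, whose products include a long activating form, was at 8.89 and 9.13 without and 9.13 and 9.13 with tamoxifen in line A. In line B it was at 9.29 and 8.82 without and at 8.97 and 9.36 with tamoxifen, so the arrays of each line B group were further apart than the groups were. The difference over both lines was 0.12 (SE 0.12, 95% interval -0.15 to 0.38, adjusted p = 0.84). Its second, dimmer probe set was at 7.72 and 7.80 without and 7.71 and 7.55 with tamoxifen in line A, and at 7.83 and 7.76 without and 7.86 and 8.10 with tamoxifen in line B. That probe set was thus lower with tamoxifen in line A and higher in line B, with differences of -0.13 (SE 0.11, 95% interval -0.39 to 0.13) and 0.19 (SE 0.11, 95% interval -0.07 to 0.45), both of which include 0. Between the lines with tamoxifen it was 0.36 higher in line B (SE 0.11, 95% interval 0.10 to 0.61, adjusted p = 0.41 in limma over all named probe sets). Which transcript of E2f3 each probe set reads was not analysed here.

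E2f4, which carries pocket proteins to promoters in resting cells, was at 8.33 and 7.93 without and 7.90 and 7.82 with tamoxifen in line A. In line B it was at 8.11 and 8.09 without and 8.21 and 7.79 with tamoxifen. Replicate 1 without tamoxifen of line A was the highest of the 8, and the groups overlapped over both lines (-0.19, SE 0.11, adjusted p = 0.67). E2f6, which represses germline genes in resting and S phase cells with a Polycomb complex, was at 9.46 and 9.57 without and 9.65 and 9.55 with tamoxifen in line A, and at 9.59 and 9.57 without and 9.73 and 9.69 with tamoxifen in line B. The line B groups did not overlap and the line A groups did, and the difference over both lines was 0.11 (SE 0.06, 95% interval -0.03 to 0.25, adjusted p = 0.67).

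E2f7, an atypical E2F that binds DNA without a DP partner and holds down E2F targets late in the cycle, was at 8.37 and 8.19 without and 7.94 and 7.76 with tamoxifen in line A. In line B it was at 8.19 and 8.41 without and at 8.11 and 7.90 with tamoxifen. All 4 arrays with tamoxifen lay below all 4 without. The difference over both lines was -0.36 (SE 0.09, 95% interval -0.56 to -0.17), 1.29-fold lower, with an adjusted p of 0.094, the smallest among the members. In the separate lines it was -0.43 (SE 0.13) and -0.30 (SE 0.13).

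E2f8, the partner of E2f7 in repression, was at 8.13 and 8.21 without and 7.69 and 7.67 with tamoxifen in line A. In line B it was at 8.13 and 8.20 without and at 8.13 and 7.92 with tamoxifen. The line A groups stood clearly apart, while in line B replicate 1 with tamoxifen lay between the arrays without it. The difference was -0.49 in line A (SE 0.10, adjusted p = 0.11) and -0.14 in line B (SE 0.10, adjusted p = 1), and over both lines -0.32 (SE 0.09, adjusted p = 0.16). The difference between these effects was 0.35 (SE 0.15, 95% interval 0.02 to 0.68) with an adjusted p of 1.00, so a difference between lines was not established.

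Among the pocket proteins, Rb1 and Rbl1 had opposite signs. Rb1, the retinoblastoma tumor suppressor gene, was at 9.74 and 9.76 without and 10.20 and 10.23 with tamoxifen in line A. In line B it was at 9.90 and 9.33 without and at 9.83 and 10.09 with tamoxifen. The line A groups were clearly apart, while in line B replicate 2 without tamoxifen was far below replicate 1, and the groups overlapped. The difference over both lines was 0.40 (SE 0.11, 95% interval 0.15 to 0.66), 1.32-fold higher, with an adjusted p of 0.18.

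Rbl1, which encodes p107, was at 7.99 and 8.20 without and 7.84 and 7.69 with tamoxifen in line A. In line B it was at 8.09 and 7.89 without and at 7.60 and 7.83 with tamoxifen. As for E2f7, all 4 arrays with tamoxifen lay below all 4 without, and the difference was -0.30 (SE 0.09, 95% interval -0.49 to -0.11), 1.23-fold lower, with an adjusted p of 0.17. Its differences in the lines were -0.33 (SE 0.13) and -0.27 (SE 0.13).

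Rbl2, which encodes p130, the pocket protein that is most abundant in resting cells, was at 8.79 and 8.81 without and 9.01 and 8.99 with tamoxifen in line A. In line B it was at 8.85 and 8.75 without and at 8.77 and 8.91 with tamoxifen. The line A groups stood apart and the line B groups overlapped, with differences of 0.20 (SE 0.10) and 0.03 (SE 0.10), and over both lines 0.12 (SE 0.07, 95% interval -0.04 to 0.27, adjusted p = 0.66).

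**Figure D2:**
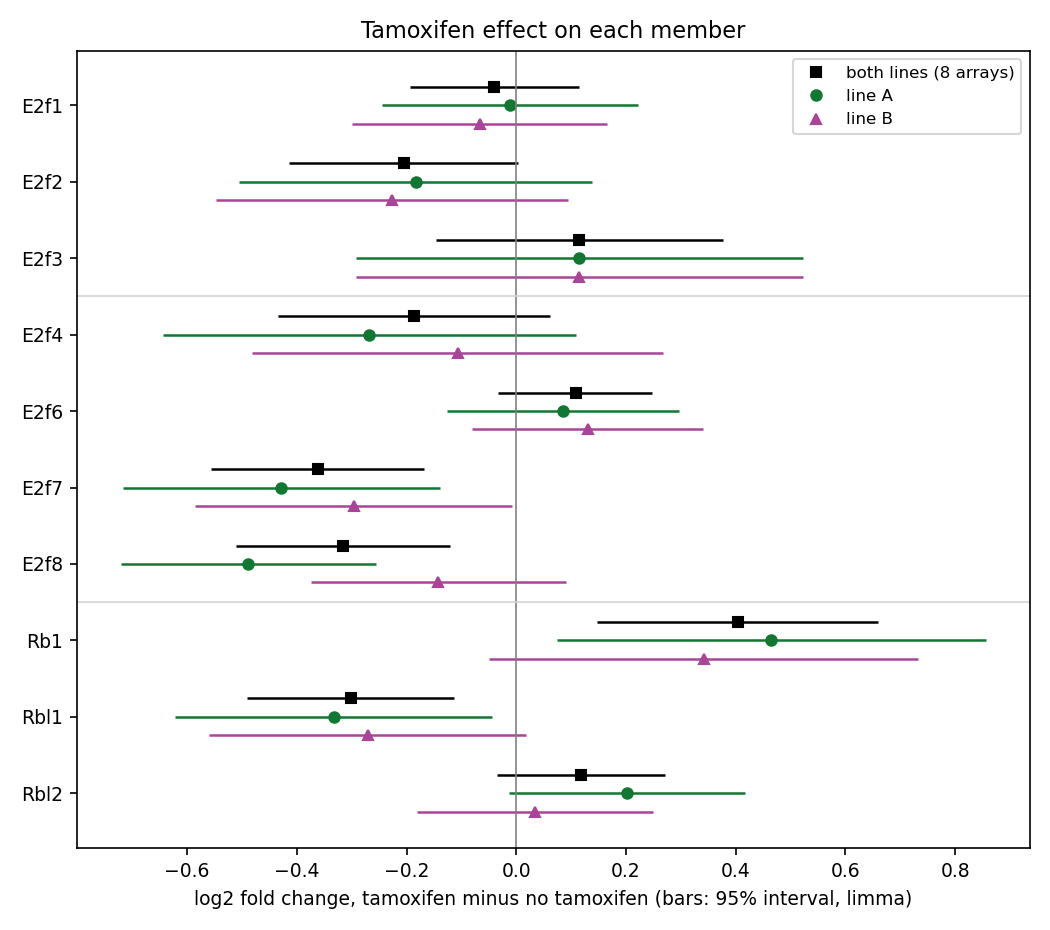
Log2 fold change, tamoxifen minus no tamoxifen (x axis), of each member over both lines, in line A and in line B; bars are 95% intervals from limma, and grey lines part activators, repressors and pocket proteins. Over both lines the intervals of E2f7, E2f8, Rb1 and Rbl1 leave out 0 before adjustment, and no adjusted p was under 0.05.

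Groups without overlap were counted for the members and for all genes. Over the 8 arrays this held for 2 of 10 members (E2f7 and Rbl1, both lower), against 5.31% of all genes, 2.74% lower and 2.56% higher. In line A it held for 7 of 10, with E2f1, E2f4, E2f7, E2f8 and Rbl1 lower and Rb1 and Rbl2 higher, against 47.6% of all genes, 26.2% lower and 21.3% higher. In line B it held for 4 of 10, with E2f2, E2f7 and Rbl1 lower and E2f6 higher, against 24.8% of all genes, 12.9% lower and 12% higher. With 2 arrays a group such a separation is common. For E2f1 and E2f4 in line A it was slight. The nearest arrays of E2f1 were at 7.3139 without and 7.3137 with tamoxifen, and those of E2f4 at 7.9254 and 7.9035. In limma 0 of 10 members passed in line A, where 0.502% of all genes did, and 4 had an unadjusted p under 0.05 (8.1% of all genes): E2f7, E2f8 and Rbl1 lower (3.11%) and Rb1 higher (4.99%). In line B 0 of 10 passed (0.0201% of all genes), and 1, E2f7, was lower at an unadjusted p under 0.05, against 2.37% of all genes lower, 2.46% higher and 4.82% either way.

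The calls of members changed with array weights, without replicate 1 of either line B group, and in a fit of line A alone. With array weights in limma, which gave the line B arrays weights from 0.425 to 0.834 and those of line A weights from 0.716 to 3.24, 4 members passed: E2f8 (-0.42, adjusted p = 0.0088), Rb1 (0.44, 0.0097), Rbl1 (-0.38, 0.011) and E2f7 (-0.36, 0.015). Under those weights 983 genes passed in all. Without replicate 1 without tamoxifen of line B, Rb1 (0.53, adjusted p = 0.016) and E2f7 (-0.42, 0.049) passed, in a fit of tamoxifen over both lines that called 353 genes. Without replicate 1 with tamoxifen of line B, E2f8 passed (-0.39, 0.041) among 296 genes. Without any 1 of the other 6 arrays 0 members passed. In a fit of the 4 line A arrays alone, E2f8 (-0.49, adjusted p = 0.016) and Rb1 (0.47, 0.018) passed among 543 genes. The signs of these 4 members held under all 19 alternatives tried over both lines.

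Differences between members on the same array do not move with a shift of that array's values. Their size has no meaning across probe sets, but their change with tamoxifen does. Of 45 pairs of members, 12 had differences that did not overlap between the 4 arrays with and the 4 without tamoxifen, against 5.87% of all pairs of genes; the pairs share members and were examined after their values were seen. Rbl1 minus Rbl2 was -0.80, -0.61, -0.77 and -0.86 on the arrays without tamoxifen and -1.18, -1.30, -1.17 and -1.08 with it. The p107 transcript was thus lower relative to the p130 transcript on each array with tamoxifen. Rb1 minus Rbl1 was 1.75, 1.56, 1.82 and 1.44 without and 2.36, 2.54, 2.23 and 2.26 with tamoxifen. The transcripts of this pair were further apart with tamoxifen in both lines. Rbl1 alone already did not overlap between the 4 arrays with and the 4 without tamoxifen. The pair therefore shows nothing separate about Rb1, whose line B groups overlapped. E2f6 minus E2f7, a pair of repressors that differ in timing, went from 1.10, 1.38, 1.40 and 1.17 to 1.71, 1.79, 1.62 and 1.79. Each pair given here holds Rbl1 or E2f7, the 2 members that did not overlap on their own.

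**Figure D3:**
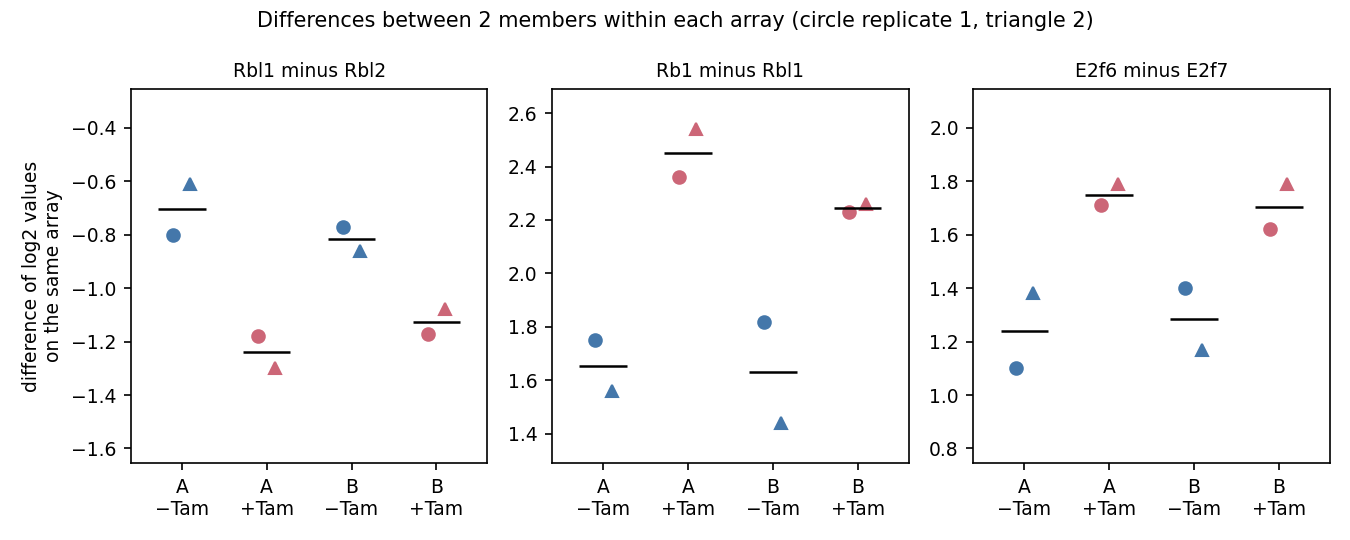
Difference of the log2 values of 2 members on the same array (y axis) by line and tamoxifen (x axis), for Rbl1 minus Rbl2, Rb1 minus Rbl1 and E2f6 minus E2f7; points are arrays and bars the mean of 2. In each panel the 4 arrays with tamoxifen do not overlap the 4 without. Each pair holds Rbl1 or E2f7, which do not overlap on their own.

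Known E2F targets of G1 and S phase fell in part. Among the 44 that were measured, 10 passed as lower, 0 as higher and 34 did neither, against 0.512% of all genes that fell. The list was chosen with earlier results of these data known, so this comparison is not independent of them. The median of the list was -0.26, where the median of all genes was -0.01. A negative sign was found for 43 of 44, against 55.4% of all genes. Ccna2, the cyclin of S phase, fell by 0.67 (SE 0.09, adjusted p = 0.0073), Clspn, which carries the replication checkpoint signal, by 0.54 (SE 0.09, adjusted p = 0.017) and Uhrf1, which maintains DNA methylation at replication forks, by 0.50 (SE 0.09, adjusted p = 0.028). Pole, of the leading strand polymerase, fell by 0.49 (SE 0.08, adjusted p = 0.012). Averaged over these targets, the line A arrays stood at 8.62 and 8.70 in untreated and at 8.34 and 8.32 in treated samples. For line B the averages were 8.69 and 8.62 in untreated and 8.44 and 8.45 in treated samples, and the groups overlapped in neither line.

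Genes of G2 and M phase listed for CHR promoter elements, which DREAM represses in resting cells, fell in part. The CHR letters were found in 42.9% of 28 promoter windows of this list. Among 28 genes, 14 passed as lower, 0 as higher and 14 did neither, against 0.512% of all genes that fell. This list too was chosen with earlier results of these data known. The median was -0.43, and all 28 had a negative sign, against 55.4% of all genes. Mki67, the proliferation marker, fell by 0.70 (SE 0.09, adjusted p = 0.0059), Cdc25c, a phosphatase that starts mitosis, by 0.64 (SE 0.09, adjusted p = 0.0078), Ect2 by 0.61 (SE 0.07, adjusted p = 0.0043) and Kif23 by 0.57 (SE 0.08, adjusted p = 0.0070), the latter pair acting in cytokinesis. The array means were 9.45 and 9.49 without and 8.94 and 8.90 with tamoxifen in line A, and 9.48 and 9.39 without and 9.11 and 9.09 with tamoxifen in line B. Among fits without 1 array, both counts changed most without an array of line A: there 0 to 2 of the E2F targets and 3 to 7 of the CHR genes fell. The counts were 2 and 7 without replicate 1 without tamoxifen, 1 and 4 without replicate 2 without tamoxifen, and 0 and 3 without replicate 1 or replicate 2 with tamoxifen. In line B alone 0 of either list passed, with medians of -0.20 and -0.33. Both counts were higher, at 26 and 25, with array weights. Of 10 fibroblast markers 2 rose (Lum by 1.33 and Dcn by 0.88) and 8 did not pass, among them Col1a2 (-0.30, SE 0.09), and the median of the list was -0.02. Of 8 endothelial markers 1 fell (Erg, -0.44) and 7 did not pass, among them Tek (0.13) and Emcn (0.12), and of 7 neural markers 1 fell (Map2, -0.38) and 6 did not pass. Of 12 epithelial and mammary and 11 blood cell markers 0 passed in limma (0 and 1 at an unadjusted p under 0.05). The part of the cell makeup of the cultures in these results was not tested.

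No partner of the members passed in the main analysis. Of 13 genes listed for dimer partners, DREAM subunits and related factors, Foxm1 and E2f5 included, 0 passed, with a median of -0.06. At an unadjusted p under 0.05 in limma there were 2, Foxm1 and Tfdp1, both lower. Foxm1, a factor of mitotic genes that is itself under E2F control, averaged 8.46 without and 8.06 with tamoxifen (-0.40, SE 0.10, adjusted p = 0.091). The DP subunit gene Tfdp1 differed by -0.17 (SE 0.07), the DREAM subunit genes Lin9 and Rbbp4 by -0.26 (SE 0.12) and -0.17 (SE 0.08). E2f5 lay between 7.66 and 8.21 on the 8 arrays. With array weights 1 of these 13 genes passed as lower, as did 1 of the 8 G1 cyclin and kinase genes, and 2 CDK inhibitor genes passed as higher.

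Upstream of the pocket proteins, 0 of 8 G1 cyclin and kinase genes passed (1 at an unadjusted p under 0.05), with a median of -0.06. Ccne2, a cyclin E gene that is also an E2F target, averaged 9.73 without and 9.42 with tamoxifen (-0.30, SE 0.11, adjusted p = 0.35). The kinase genes Cdk6, Cdk2 and Cdk4 differed by 0.14 (SE 0.07), -0.14 (SE 0.08) and -0.26 (SE 0.15). Of 6 measured CDK inhibitor genes 1 fell, Cdkn2c, which encodes p18, an inhibitor of CDK4 and CDK6 (-0.43, SE 0.07, adjusted p = 0.021). This call was lost without any 1 of the line A arrays and without a term for the line. Cdkn1c and Cdkn2b differed by 0.23 (SE 0.07) and 0.22 (SE 0.07) and Cdkn1b by -0.26 (SE 0.22). At an unadjusted p under 0.05 in limma, 2 of the 6 were higher (Cdkn1c and Cdkn2b) and 1 lower (Cdkn2c), against 5.53% and 4.32% of all genes. Cdkn1a was also listed, but no probe set carried its name alone, so it was not measured or tested here.

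Around E2f6, 0 of 12 genes of its Polycomb complex passed (0 at an unadjusted p under 0.05), with a median of 0.00; Yaf2 and Rnf2 differed by 0.17 (SE 0.09) and 0.18 (SE 0.09), Wdr5 by -0.11 (SE 0.08) and Max by 0.11 (SE 0.09). Of 5 germline genes that E2F6 represses 0 passed (0 at an unadjusted p under 0.05), with a median of 0.01, and Slc25a31, Stag3, Smc1b and Tuba3a differed by 0.06, -0.04, 0.05 and 0.01 (SE 0.08, 0.07, 0.08 and 0.08). None of these 5 genes stayed above 7.34 on all arrays.

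**Figure D4:**
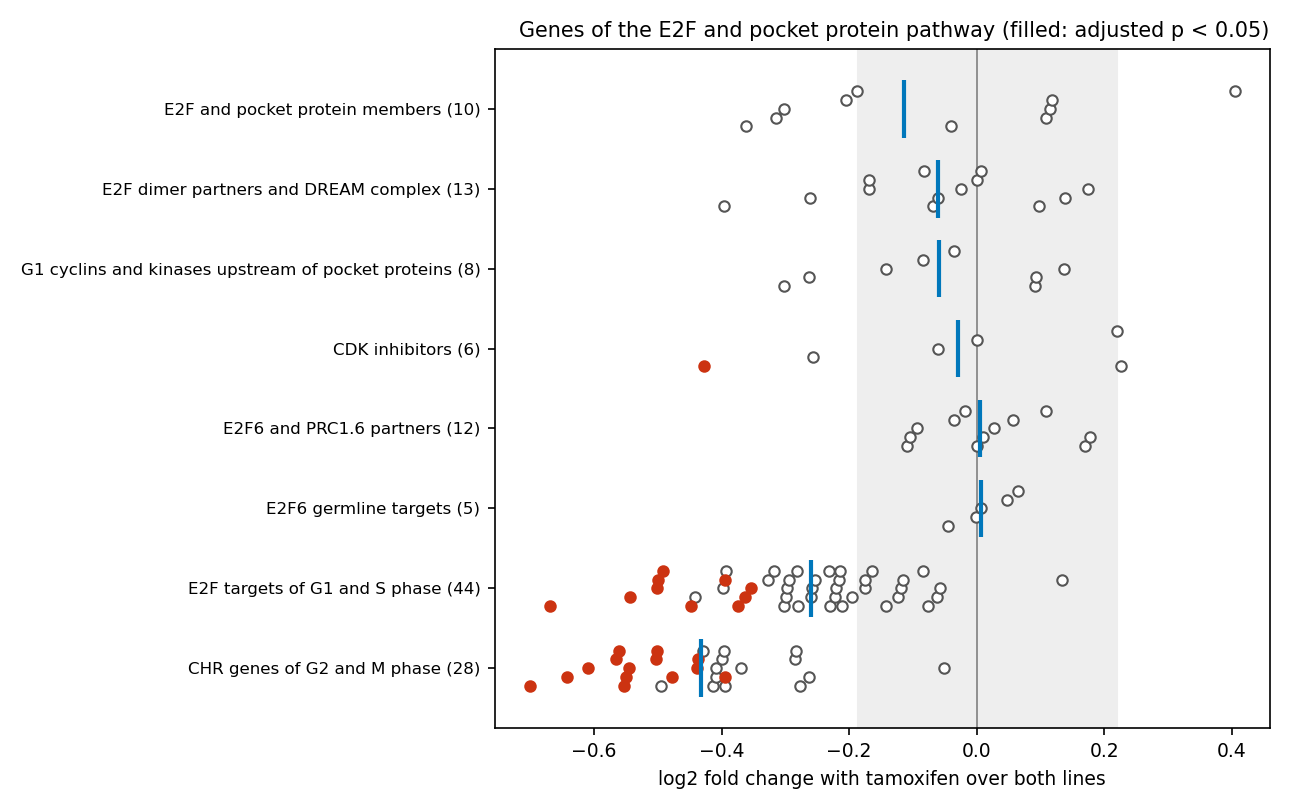
Log2 fold change with tamoxifen over both lines (x axis) of each gene of the 8 lists around the E2F factors and pocket proteins (y axis, with the number measured); filled points passed an adjusted p of 0.05 in limma, blue bars are list medians, and the grey band runs from the 5th to the 95th percentile of all genes, -0.19 to 0.22. The targets of G1 and S phase and the CHR genes lie to the left, and the members lie on both sides of 0.

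No member passed the test between line A and line B. Without tamoxifen 0 of 10 passed (0.326% of all genes did; 0 members at an unadjusted p under 0.05, against 5.2%), and differences of line B minus line A ran from -0.14 for Rb1 to 0.18 for E2f2. With tamoxifen 0 of 10 passed (0.532% of all genes did; 1 member at an unadjusted p under 0.05, against 6.72%), and among the probe sets that stand for the genes the largest difference was that of E2f8, 0.34 higher in line B (SE 0.10, 95% interval 0.11 to 0.57, adjusted p = 0.39). The groups of E2f8 were at 7.69 and 7.67 in line A and 8.13 and 7.92 in line B with tamoxifen. Of the tamoxifen effects themselves, 0 of 10 differed between the lines in limma, 1 had an unadjusted p under 0.05 (E2f8) against 2.83% of all genes, and 0 of all genes passed (0%). With all 8 arrays taken by line, 0 of 10 members had values that did not overlap, against 4.89% of all genes. Of 11 blood cell markers 0 passed between the lines. At an unadjusted p under 0.05 in limma, 4 without and 8 with tamoxifen were higher in line B. In both comparisons 1 of 8 endothelial markers passed as higher and 1 of 7 neural markers as lower. Of 10 fibroblast markers 2 passed as higher without and 1 as lower with tamoxifen. Whether the lines differed in cell makeup was not tested.

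The genes whose values over the 8 samples were most like each member are given as a description, since among so many genes a high correlation with any of them is common, and the samples share their groups and arrays. For E2f7 these were Rpap1, Dnmt1 and Lrp8 (Pearson r 0.981, 0.979 and 0.975), Dnmt1 being a listed E2F target. For Rbl1 they were Wee1, Ckap5 and Cdkn3 (0.984, 0.975 and 0.975), a kinase that restrains mitosis, a spindle protein and a CDK phosphatase. For E2f8 they were Chac1, Pelp1 and Miox (0.959, 0.952 and 0.951), and for Rb1 Ercc5, Nudt6 and Rc3h2 (0.991, 0.988 and 0.983). For Rbl2 they were Cxcr6, Tusc3 and Ehbp1 (0.985, 0.984 and 0.969), for E2f4 Eif4ebp1, Sf1 and Brf2 (0.989, 0.953 and 0.952) and for E2f6 Bex1, Sfmbt1 and Thumpd2 (0.978, 0.976 and 0.972). For the activators they were Gpat4, Usp5 and Tanc1 for E2f1 (0.990, 0.990 and 0.987), Kcnh5, Drc7 and Cd300lb for E2f2 (0.963, 0.953 and 0.949) and Tmco1, Micu3 and Ifrd1 for E2f3 (0.995, 0.993 and 0.992).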

How the data were processed

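RNA of 8 fibroblast samples was hybridised to Affymetrix arrays. Per the series design text, the authors used RMA, run in the Expression Console software; no version of it is named there. The deposited table holds log2 values between 2.61 and 14.12 for 35556 probe sets; the log2 scale follows from RMA. RMA quantile-normalizes the arrays and compresses differences of dim probe sets. Array medians lay between 7.17 and 7.24.

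Titles set the groups; replicate numbers follow sample order and pair nothing. The platform annotation gave 1 symbol for 21789 probe sets, several for 1621 (not named here) and none for 12146. The probe set with the highest mean stood for a gene, leaving 19938 genes. Tests used limma 3.58.1 in R 4.3.3 with Benjamini-Hochberg adjustment over all genes at 0.05: line plus tamoxifen for both lines (5 residual degrees of freedom), and 4 group means for the other comparisons (4). The fits were tested on simulated data. The number of arrays limits the precision.

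Members and gene lists were chosen with earlier results of these data known. Genes named are all members, the 4 of each pathway list with the smallest p, and the 3 genes most like each member; genes named among those without overlap, pairs or lost calls were chosen after their values were seen. Promoters come from RefSeq (GRCm38.p6). Alternatives were other normalizations, a filter on dim genes, other eBayes and array weight settings, other uses of probe sets, of the line and of single samples, and the pairs of line B arrays that lie on 1 side, added after seeing the data.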

Additional observations from a re-analysis of the deposited data

Results flagged for a closer look

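The second probe set of E2f3 was lower with tamoxifen in line A and higher in line B, with no overlap of the groups in either line. The groups were barely apart: the nearest arrays were at 7.72 without and 7.71 with tamoxifen in line A and at 7.83 and 7.86 in line B, and groups without overlap were found for 47.6% of all genes in line A and 24.8% in line B. The intervals of both effects and of their difference include 0. The difference of the tamoxifen effects, line B minus line A, was 0.32 (SE 0.16, 95% interval -0.04 to 0.68, adjusted p = 1.00 in limma over all named probe sets), and the brighter probe set of E2f3 gave -0.00 (SE 0.25).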

How the results depend on the processing

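No paired analysis was possible because the labels number no replicates. The 60 differences of the members (10 genes in 6 comparisons) had 960 values under the alternatives: 892 kept their sign and side of the threshold, 15 gained a call, 0 lost one and 53 changed sign, none of these past the threshold. Over both lines 263 genes passed, and the count was 983 with array weights, 132 with no term for the line, 493 without the line B arrays PKM2 replicate 2 and PKM1 replicate 1, 829 without PKM2 replicate 1 and PKM1 replicate 2 (both chosen after seeing the data), and 58 to 353 without 1 array. Members that passed there numbered 4 with array weights, 3 and 2 without those pairs of arrays and 0 to 2 without 1 array. In line A (100 genes) the count was 63 with arrays shifted to a common median, 525 with array weights, 183 with every probe set, 543 with its 4 samples only and 0 to 143 without 1 array; 1 member passed with array weights and 2 with its 4 samples only. In line B (4 genes) it was 2 after either renormalization, 1 with array weights, 2 with its 4 samples only and 0 to 6 without 1 array. Between the lines it was 4 to 79 without tamoxifen (65 in the main analysis), and with tamoxifen (106) it was 195 with every probe set and 0 to 102 without 1 array. Of the E2F targets 26, and of the CHR genes 25, passed as lower with array weights; 5 E2F targets did with arrays shifted to a common median or with no term for the line. After the median shift and renewed quantile normalization, E2f1 gave 0.017 and 0.014 with tamoxifen in line A and -0.036 and -0.045 between the lines with tamoxifen, and Rbl2 gave -0.004 and -0.027 between the lines without it. E2f3 gave -0.008 in line A and 0.16 in the difference of the effects with the mean of its probe sets, and 0.06 in that difference after quantile normalization. Leaving out 1 array at a time gave log2 differences of both signs for these members: with tamoxifen over both lines E2f1 -0.075 to 0.007; with tamoxifen in line A E2f3 -0.005 to 0.236; with tamoxifen in line B E2f1 -0.169 to 0.035, E2f3 -0.123 to 0.352, E2f4 -0.317 to 0.104, Rbl2 -0.035 to 0.104; in the difference of the tamoxifen effects E2f1 -0.158 to 0.047, E2f2 -0.204 to 0.116, E2f3 -0.238 to 0.237, E2f4 -0.05 to 0.371, E2f6 -0.008 to 0.1, Rb1 -0.409 to 0.162, Rbl1 -0.052 to 0.176; between the lines without tamoxifen E2f1 -0.006 to 0.119, E2f3 -0.194 to 0.282, E2f4 -0.231 to 0.178, E2f7 -0.087 to 0.132, E2f8 -0.044 to 0.032, Rb1 -0.421 to 0.15, Rbl2 -0.048 to 0.055; between the lines with tamoxifen E2f1 -0.101 to 0.103, E2f2 -0.017 to 0.283, E2f3 -0.152 to 0.239, E2f4 -0.076 to 0.345, Rbl1 -0.163 to 0.065. The cause was not tested. The 2 arrays a group limit what can be called.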
